A study of Caenorhabditis elegans with 2 samples.

Results

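The mitochondrial chromosome of the nematode Caenorhabditis elegans (MtDNA, 13794 bp) carries 36 of the 46926 genes of the annotation used here. Of these, 12 encode proteins, 22 encode tRNAs and 2 encode rRNAs, and the longest stretch without a gene, an AT-rich stretch of 467 bp, was added as the last of 37 members. All were taken by position and none by signal. They were examined in ChIP-seq data for NHR-28, a nuclear hormone receptor; the assay precipitates DNA bound to a protein and sequences it. The embryos were of mixed stages and of both sexes, from strain OP317, whose genotype is the ed3 allele of unc-119 on chromosome III together with the transgene wgIs317, which carries nhr-28 tagged with eGFP. There were 2 biological replicates of this 1 group, from whole organisms, so that cell types were not separated. No untagged strain and no other stage was analysed here, and no read total is given, so the depth behind each value is unknown.

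Mitochondrial DNA is a small circular molecule inside the organelle, held in many copies per cell. Its protein-coding genes make core subunits of respiratory complexes I, III and IV and of the ATP synthase (complex V), and its rRNAs and tRNAs serve the organelle's own ribosomes, while all other mitochondrial proteins come from nuclear genes. In C. elegans all 36 genes lie on the same strand, and the AT-rich stretch is the main non-coding stretch. Nuclear hormone receptors are transcription factors that bind DNA through zinc fingers.

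Regions covered much of MtDNA in every ce11 list, with their summits in protein-coding and rRNA genes, in tRNA-His and in the AT-rich stretch. The authors compared each replicate, and both together (the pooled list), with a control to call regions, and kept those that passed the irreproducible discovery rate step (the IDR list). The summit is the base where a region peaks, and the signal value is the authors' measure of the strength of a region on the scale of its own list. Of 24 pooled MtDNA regions 22 were in the IDR list, where 0.793% of all 30000 pooled regions were. The IDR list had 1.59 regions per kb of MtDNA and 0.00215 per kb of the nuclear chromosomes. Values in the pooled list were 1.74 and 0.299 regions per kb, in replicate 1 they were 1.96 and 0.147, and in replicate 2 they were 1.74 and 0.0452. Density on MtDNA was thus of like size in each list, while density on the nuclear chromosomes differed widely between lists. The lists held 238, 30000, 14746 and 4556 regions in that order. Their regions covered 45.2%, 48.6%, 58.7% and 51.6% of MtDNA, which limits the room for more. The like density of MtDNA across lists can therefore not be read as a trait of MtDNA. Why density was higher on MtDNA than on the nuclear chromosomes within each list was not tested.

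The strongest regions of each list were mitochondrial. The 7 strongest of the pooled list, the 10 strongest of replicate 1 and the 8 strongest of replicate 2 lay on MtDNA. The median signal of MtDNA regions was 8.60 times the nuclear median in the pooled list, 6.07 times in replicate 1 and 5.10 times in replicate 2. The contrast was smaller in the IDR list, where the median was 155 on MtDNA and 73.9 on the nuclear chromosomes. The nuclear median of the pooled list was 16.7, so the larger ratios depend on the many weak nuclear regions of the longer lists. Of 27 MtDNA regions of replicate 1, 24 had a q-value of 0.05 or less, where 2.37% of all its regions had one. In replicate 2 it was 23 of 24, where 5.18% of all regions had one. Regions are not replicates, so no test was made, and the copies of MtDNA per cell and the control reads over MtDNA are not analysed here.

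**Figure D1:**
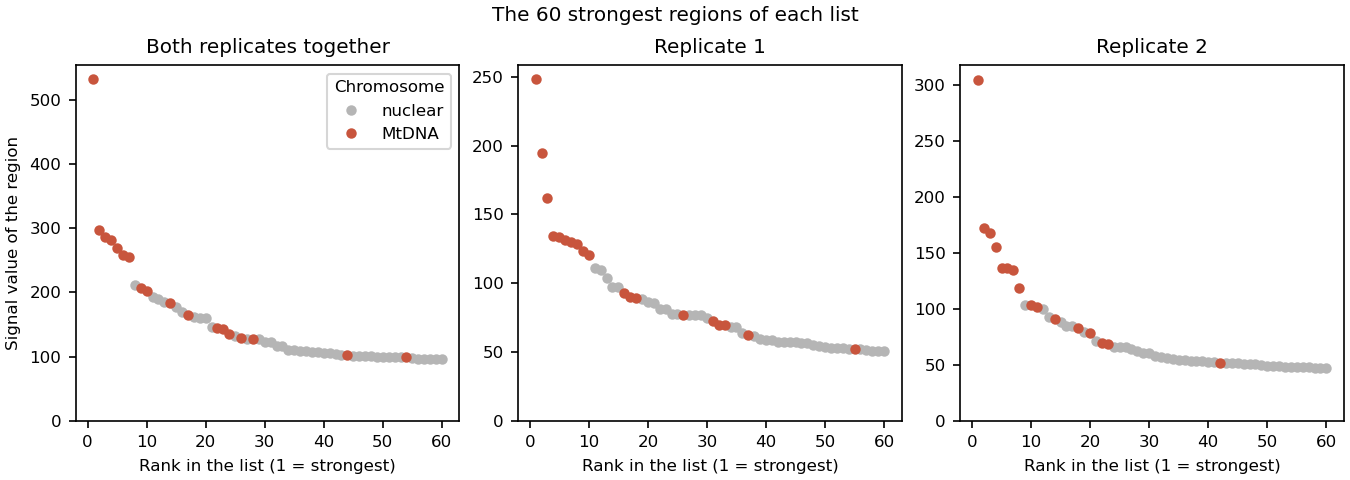
Signal value (y axis) against rank (x axis) for the 60 strongest regions of the pooled list and of each replicate list, on the scale of each list, with 1 point per region. Mitochondrial regions (red) fill ranks 1 to 7, 1 to 10 and 1 to 8, ahead of the first nuclear region (grey).

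Sequences at 6 strong mitochondrial summits and at the strongest nuclear summit show that strong regions differ in composition. Each is 61 bases of the plus strand of WBcel235 (ce11) from RefSeq, 5' to 3', centred on the pooled summit, with G and C in capitals. They run over MtDNA bases 12410 to 12470 (ND5), 13698 to 13758 (AT-rich stretch), 462 to 522 (ND6), 9097 to 9157 (COX1), 3990 to 4050 (ND2) and 10369 to 10429 (tRNA-His), in order of signal, and over V 12303609 to 12303669 for the nuclear region.
ND5: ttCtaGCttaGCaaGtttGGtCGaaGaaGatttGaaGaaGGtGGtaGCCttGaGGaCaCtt
AT-rich stretch: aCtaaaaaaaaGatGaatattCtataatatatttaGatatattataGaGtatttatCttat
ND6: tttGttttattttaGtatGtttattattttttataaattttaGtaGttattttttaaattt
COX1: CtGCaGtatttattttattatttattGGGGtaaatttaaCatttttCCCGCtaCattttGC
ND2: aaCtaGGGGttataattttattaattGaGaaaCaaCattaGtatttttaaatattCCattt
tRNA-His: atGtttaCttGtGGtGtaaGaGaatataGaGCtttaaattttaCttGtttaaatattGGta
Strongest nuclear region: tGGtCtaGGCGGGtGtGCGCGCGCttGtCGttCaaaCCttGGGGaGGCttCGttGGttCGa

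The ND5 sequence, at the strongest region of all, had 26 G or C in 61 bases (42.6%), a content reached by 1.52% of the 13734 MtDNA windows of this length. Within 100 bp of this summit the content was 30.3%, and the replicate 1 summit, at base 12487, lay outside the printed bases. The ND6 sequence, at the third strongest region, had 5 (8.20%), and 97.4% of windows had at least as many. The AT-rich stretch had 8, ND2 12, tRNA-His 15 and COX1 17. The median window had 14, so the strongest regions lay on both sides of it. The nuclear sequence, at a region over the snoRNA gene C51F7.4 and frm-7, had 37 (60.7%).

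In all, 14 of the 37 members held an IDR summit. They were 10 of the 12 protein-coding genes, both rRNA genes, 1 of the 22 tRNA genes and the AT-rich stretch. Among 19973 nuclear protein-coding genes 0.35% held one. ND4L and ND3, the shortest protein-coding genes, held no IDR summit. The 12 protein-coding genes had 47.9% of their bases in IDR regions, both rRNA genes together 48.9%, the AT-rich stretch 44.5% and the tRNA genes 16.3%. Across the 14 members with a pooled summit, the highest signal and the length were related with r = 0.33 and rho = 0.051, and the highest signal and the GC content of the member with r = -0.25 and rho = -0.33. These are descriptions over genes that share their libraries and 1 molecule.

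**Figure D2:**
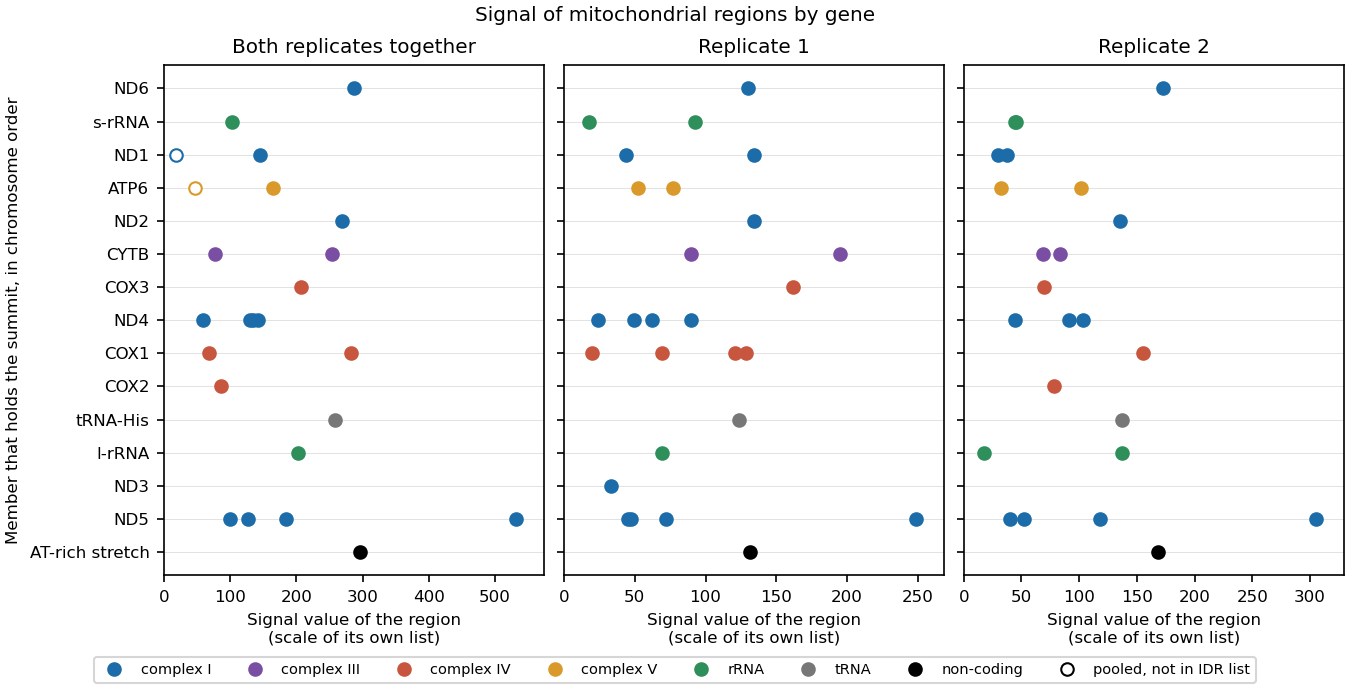
Signal value of each mitochondrial region (x axis, scale of its own list) by the member that holds its summit (y axis, chromosome order), in the pooled list, replicate 1 and replicate 2, with 1 point per region coloured by role. ND5 holds the strongest region in all 3 panels, and the open points in ND1 and ATP6 are the 2 pooled regions outside the IDR list.

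Complex I, the NADH dehydrogenase that passes electrons to ubiquinone, has 7 mitochondrial subunit genes, of which 5 held 11 IDR summits. ND5 (WBGene00010967, bases 11691 to 13272) held 4, at 41, 749, 953 and 1482 bp from its start. Their pooled signals were 99.1, 532, 127 and 184. The second of them, in a narrow region of 158 bp at bases 12304 to 12461, was the strongest region of the series, with a signal of 248 in replicate 1 and 305 in replicate 2, rank 1 in both. Its replicate summits lay 65 bp apart, that of replicate 1 at base 12487 and so beyond the end of the pooled region. The other 3 ranked between 31 and 87 in replicate 1, and the last of them ranked 8 in replicate 2. ND5 thus held the highest value of the molecule and 2 values below its median of 144.

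ND4 (bases 6506 to 7808) also held 4 IDR summits, with pooled signals of 135, 58.7, 129.6 and 142, and had 76.3% of its bases in IDR regions, the highest share of the protein-coding genes. The first and last were found in both replicates, with 62.5 and 49.9 in replicate 1 and 91.3 and 103 in replicate 2. The second was found in replicate 2 only (44.7) and the third in replicate 1 only (89.6). No ND4 region reached the signal of the ND6 or ND2 region, so the gene with the widest cover was not among the strongest.

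ND6 (bases 113 to 549) held 1 summit, with 287 in the pooled list, 130.1 in replicate 1 and 173 in replicate 2. ND2 (bases 3389 to 4269) held 1, with 268, 134 and 135. Each ranked among the 7 strongest in every list. ND1 (bases 1763 to 2635) differed between replicates: its IDR region had 145 in the pooled list, 134 in replicate 1, where it ranked 5, and 37.6 in replicate 2, where it ranked 119. A further pooled region of ND1, with its summit at base 2452, had the lowest signal on MtDNA (18.7), no replicate region over its summit and no place in the IDR list. The replicates also shared an ND1 region without a pooled summit, with signals of 44.0 and 29.7 and summits 62 bp apart. ND3 held a summit in replicate 1 only (33.5, rank 213), and ND4L in no list.

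Complex III, which passes electrons to cytochrome c, has 1 mitochondrial gene, CYTB (bases 4504 to 5621), with 2 IDR summits. The first had 254 in the pooled list, and 195 in replicate 1 against 83.2 in replicate 2. It ranked 2 in replicate 1 and 18 in replicate 2. The second, of 77.7, was found in replicate 1 (89.5), whereas the second CYTB summit of replicate 2 lay 243 bp from the nearest replicate 1 summit.

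Complex IV, cytochrome c oxidase, has 3 mitochondrial subunit genes, and all held an IDR summit. COX1 (bases 7827 to 9428), the catalytic subunit, held 2. That at base 9127 had 282 in the pooled list, 129 in replicate 1 and 155 in replicate 2, with replicate summits 9 bp apart. That at base 8190 (68.2) was found in replicate 1 only (69.3). Replicate 1 had 2 further COX1 summits that lay in no replicate 2 region, of which that at base 8888 had a signal of 121 and rank 10. Of the bases of COX1, 71.3% lay in replicate 1 regions and 21.6% in replicate 2 regions, the widest gap among the protein-coding genes with a summit in both. COX3 (bases 5678 to 6449) had 207 in the pooled list, 162 in replicate 1 and 69.8 in replicate 2. COX2 (bases 9649 to 10348), which holds the copper site that receives electrons from cytochrome c, had 86.1 in the pooled list and 78.2 in replicate 2, with no replicate 1 summit in the gene.

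Complex V has 1 mitochondrial gene, ATP6 (bases 2634 to 3235), a subunit of the proton channel. Its IDR region, with the summit at base 2974, had 165 in the pooled list and 77.2 in replicate 1, with no replicate 2 region over the summit. Its other pooled region, with the summit at base 3204 and outside the IDR list, had 46.2 and was found in replicate 2 only (102). The summits of these 2 replicate regions lay 169 bp apart. A weaker ATP6 region was shared by the replicates, with summits 45 bp apart and signals of 52.3 and 32.4, and had no pooled summit.

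Both rRNA genes held an IDR summit. The large rRNA gene (l-rRNA, bases 10403 to 11354) had 202 in the pooled list, 69.5 in replicate 1 and 137 in replicate 2. Its rank was 32 in replicate 1 and 5 in replicate 2, the opposite order to CYTB, COX3 and ND1. The small rRNA gene (s-rRNA, bases 898 to 1593) had 103 in the pooled list and 92.8 in replicate 1, and replicate 2 had 2 weaker summits there (44.4 and 45.1), neither of whose regions held the pooled summit. The second of these lay 14 bp from a further summit of replicate 1 (17.7).

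Of the 22 tRNA genes, which are 52 to 62 bp long, only tRNA-His (bases 10348 to 10401) held a summit, and it did so in every list. Its region had 258 in the pooled list, 123 in replicate 1 and 137 in replicate 2, and its summit, at base 10399, was 4 bp before the start of l-rRNA. The pooled region, of 324 bp, also reached into COX2 and l-rRNA, and the replicate summits lay 22 bp apart. Its signal can therefore not be tied to tRNA-His alone. The share of tRNA genes that held an IDR summit, which rests on 1 gene, was near that of nuclear tRNA genes, of which 4.41% (27 of 612) did. The backgrounds were unlike. Mitochondrial tRNA genes held 0.82 IDR summits per kb, against 1.58 over all 36 mitochondrial genes. Nuclear tRNA genes held 0.589 per kb, against 0.00212 over all nuclear genes. IDR regions covered tRNA-Asp, tRNA-Gly and tRNA-His wholly and tRNA-Met in part, and did not touch the other 18. Of the bases of all tRNA genes 21.6% lay in replicate 1 regions and 39.0% in replicate 2 regions, below the 58.7% and 51.6% of all MtDNA. The row of tRNA genes from tRNA-Ile to tRNA-Gln lay in no region of any list.

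**Figure D3:**
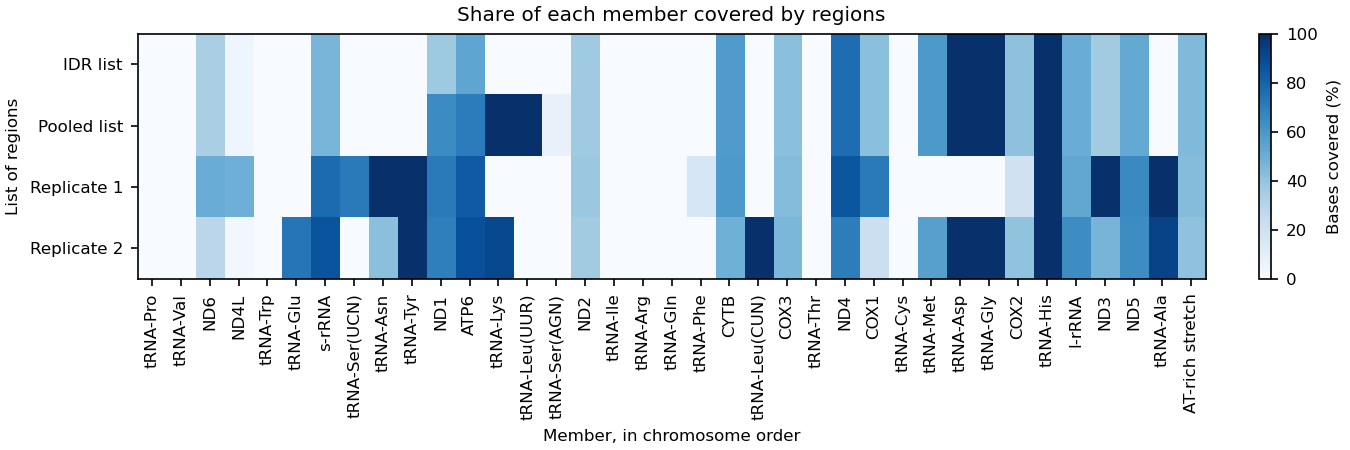
Share of bases covered by regions (colour, 0 to 100%) for each of the 37 members (x axis, chromosome order) in the IDR list, the pooled list and both replicate lists (y axis). Most tRNA genes are blank in the IDR list, tRNA-His is wholly covered in all 4 lists, and COX1 is covered to 71.3% in replicate 1 and 21.6% in replicate 2.

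The AT-rich stretch (bases 13328 to 13794, GC content 6.85%) held the second strongest pooled region, with 297 in the pooled list, 132 in replicate 1 and 168 in replicate 2. Its summits in the 3 lists lay within 13 bp. In all 4 lists the region ended at base 13794, the last base of the linear map of this circular molecule, and no list had a region over bases 1 to 328. Within the stretch no list covered bases 13346 to 13586, 241 bp with a GC content of 2.90%. Most of a tandem repeat lies there: from base 13406 to 13614, 209 bp, the sequence repeats a unit of 43 bases 4.86 times without a mismatch. The unit, shown because regions of each list begin only near the end of the repeat, has no G or C.
Repeat unit: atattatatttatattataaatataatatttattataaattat

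Words of 36 bases that occur more than once were counted across the reference, since a read from such a word cannot be placed by its sequence alone. Of the 13759 words of MtDNA, 178 (1.29%) were repeated on MtDNA and 12 (0.0872%) also occurred on a nuclear chromosome. All of these lay in the AT-rich stretch. None of the 12 touched a region of any list, and 32 of the 178 did. All other members had only words that occurred nowhere else, so their regions lay on sequence unique at this length.

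Most mitochondrial summits of the pooled list were found in both replicates, where 41.2% of all MtDNA bases lay in regions of both. A pooled region was counted as found in a replicate when its summit lay in a region of that replicate. Of the 24 pooled MtDNA regions 15 were found in both (62.5%), 5 in replicate 1 only, 3 in replicate 2 only and 1 in neither. The 95% Wilson interval of the 62.5%, 42.7 to 78.8, holds counting error only and takes the regions as independent. They share 1 molecule and the same libraries, and some overlap, so it gives no spread between replicates. Of all pooled regions 4.74% were found in both. Among nuclear IDR regions it was 213 of 216 (98.6%), against 15 of 22 on MtDNA. IDR regions were selected for reproducibility, so their shares, summit distances and signal relations are in part set by that selection. By any overlap of 1 bp or more, 91.7% of the MtDNA regions were found in both. The share of all pooled regions by this looser rule is not given here, so the value has no background beside it. Replicate 1 regions covered 58.7% of MtDNA and replicate 2 regions 51.6%. On the nuclear chromosomes these lists had 0.147 and 0.0452 regions per kb. A match by either rule is thus met more easily on MtDNA, whatever the agreement in place. Where both replicates had the region, their summits were a median of 22 bp apart (at most 95), against 27 bp at nuclear IDR regions. Of all MtDNA bases 41.2% lay in regions of both replicates, 17.5% in replicate 1 only, 10.4% in replicate 2 only and 30.9% in neither.

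Across the 15 regions found in both, replicate signals were related with r = 0.58 and rho = 0.30, each pooled summit taking the replicate region with the nearest summit. Without the strongest ND5 region the values were 0.22 and 0.13. They were 0.10 and -0.022 without the 2 regions farthest from the replicate 1 median. Both settings were added after seeing the data. Leaving out extreme regions narrows the range and by itself tends to lower such values, so they cannot show what the relation rested on. Nuclear IDR regions gave r = 0.57 and rho = 0.33 over 213, with no extreme region left out. Apart from ND5, the order of several mitochondrial genes differed between replicates. CYTB, COX3 and ND1 ranked 2, 3 and 5 in replicate 1 and 18, 22 and 119 in replicate 2. In replicate 2, ND6, the AT-rich stretch, COX1 and l-rRNA followed ND5. Many strong members were shared: ND6, the AT-rich stretch and COX1 also ranked 7, 6 and 8 in replicate 1. ND2 ranked 4 in replicate 1 and 7 in replicate 2, and tRNA-His 9 and 6.

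**Figure D4:**
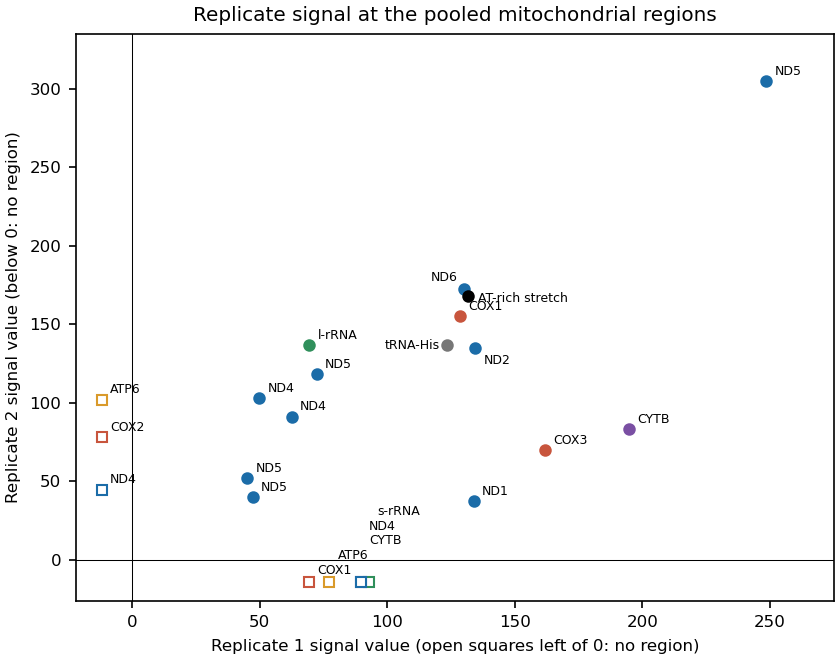
Signal value in replicate 1 (x axis) and replicate 2 (y axis) of the pooled mitochondrial regions, named by member and coloured by role, with open squares beyond the zero lines for the 8 regions found in 1 replicate only (CYTB lies under ND4). ND5 stands alone at 248 and 305, while CYTB, COX3 and ND1 lie towards replicate 1.

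GC content within 100 bp of the summit ran from 10.2% to 34.8% over the 24 regions, with a median of 23.4%, close to the 23.9% of all MtDNA windows of that length. It was related to the signal with r = -0.098 and rho = -0.21, a weak relation whose sign changed with a narrower window. The 12 regions of lower GC content had a median signal of 164 and the 12 of higher content one of 128, and their ranges overlapped widely. On the nuclear chromosomes IDR regions were richer in GC, with medians of 46.8% at tRNA genes, 48.3% at snoRNA genes and 43.0% elsewhere. Of the 14610 nuclear pooled regions within the GC range of the MtDNA regions only 9 (0.0616%) were in the IDR list, and their signals ran from 60.8 to 127. Read the other way, 9 of the 216 nuclear IDR regions had a GC content at or below the highest on MtDNA.

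**Figure D5:**
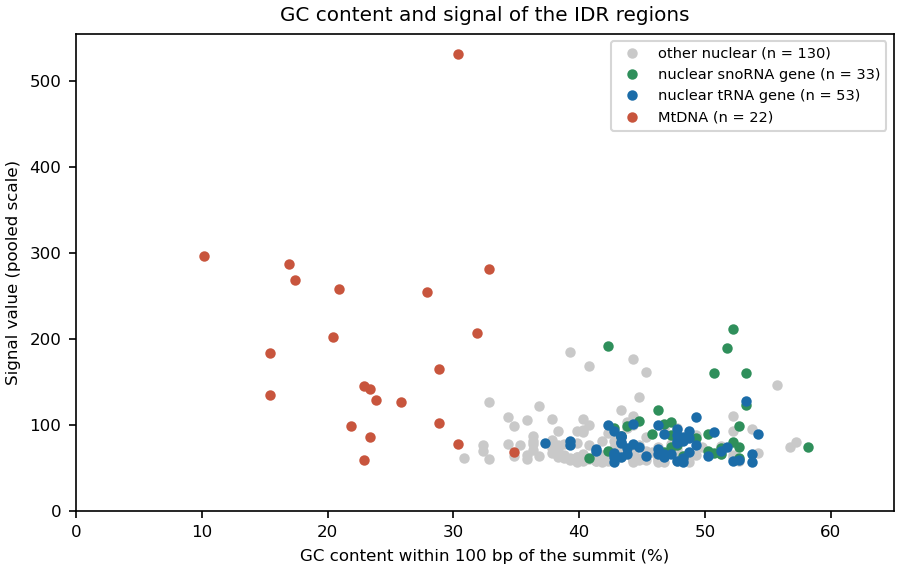
Signal value on the pooled scale (y axis) against GC content within 100 bp of the summit (x axis, %) for the 238 IDR regions, with 1 point per region coloured by place. The 22 mitochondrial regions lie between 10.2% and 34.8% and reach 532, whereas nuclear regions lie above 30% and reach 212.

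Motifs were looked for on both strands of MtDNA. AGGTCA, the core hexamer bound by many nuclear hormone receptors, occurred 2 times, in ATP6 and CYTB, and the longer AAGGTCA, which overlaps the former, 1 time. Neither lay in an IDR region. The copy in ATP6, at base 2784, lay in a region of both replicates, and that in CYTB, at base 5496, in a region of replicate 2. None of the 22 windows of 201 bp around IDR summits held AGGTCA, against 2.88% of all such MtDNA windows. GAGAGA occurred 3 times, 1 of them in an IDR region. TTTCAG, which resembles the end of nuclear introns in C. elegans, occurred 10 times, with 9 in IDR regions, which cover 45.2% of the bases. It was in 8 of 22 summit windows (36.4%), against 14.4% of all windows. The motifs were chosen with earlier results of these data known, so these counts are descriptions of letters and cannot serve as a test. Windows of neighbouring summits can overlap.

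Nuclear genes for the same machinery were counted by the distance of a summit from their 5' ends. Of 70 genes for mitochondrial ribosomal proteins 2 had an IDR summit within 1000 bp of a 5' end, where 0.861% of all nuclear protein-coding genes did. They were mrps-28, for a protein of the small subunit, and mrpl-23, for one of the large subunit. The summit counted for mrps-28 (signal 123) lay 987 bp from its 5' end and 65 bp from the snoRNA gene Y43F8C.22, and that for mrpl-23 (91.3) lay 886 bp from its 5' end. None of 40 genes for nuclear subunits of the respiratory chain and ATP synthase and none of 5 genes for maintenance and transcription of mtDNA had one. Within 500 bp no gene of these lists had one, where 0.591% of all nuclear protein-coding genes did. In the pooled list 52 of 70, 33 of 40 and 2 of 5 genes had a summit within 1000 bp, where 53.7% of all nuclear protein-coding genes did.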

How the data were processed

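ChIP-seq regions of 2 biological replicates were analysed, per the labels. The authors deposited region lists on 2 builds, ce11 (used here) and ce10 (a check). Regions were called against a control with a relaxed setting, on each replicate and on both, and the IDR list was drawn from these, per the libraries' text records. The signal is the authors' value for each region against the control. The replicate lists hold −log10 q-values as deposited, and the pooled and IDR lists a deposited log10 value in the same column, which is below 0 for most pooled regions and so is no plain q-value. The aligner, caller and cutoffs are not stated in the labels or files used here.

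Gene ends came from Ensembl release 115 and names from RefSeq, matched on strand and position. Each summit was assigned to the gene it lies in. Python 3.11.15, numpy 2.4.6, pandas 2.3.3 and scipy 1.17.1 were used, and the assignments were tested on a simulated chromosome (8 of 8 checks returned the planted answer). Every member was reported, with full values for those with an IDR summit. With 1 group, no test between samples was possible. The alternatives tried were the build, the threshold, the assignment, the overlap, the GC window and leaving out each replicate. The members, motifs and gene lists were chosen with earlier results of these data known.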

Additional observations from a re-analysis of the deposited data

How the results depend on the processing

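The number of MtDNA regions (22) stayed between 20 and 24, where a left-out replicate means that as many of the strongest regions of the other were taken as the IDR list holds (its whole list has up to 27), and the number of members with a summit (14) between 14 and 19 under the alternatives set for the IDR list, RefSeq gene ends (added after seeing the data) included. Replicate agreement, 62.5% as reported, rose to 91.7% by an overlap of 1 bp or more. That is a looser rule, easily met where regions cover much of MtDNA, and its share over all regions is not given here. The rho between GC content and signal, -0.21, was 0.036 with 50 bp to either side, and ranged from -0.28 to 0.12 with 1 replicate left out. The ratio of the MtDNA to the nuclear median signal, 8.60 in the pooled list, was 9.42 on ce10 and ranged from 5.10 to 6.07 with 1 replicate left out. It was lower in the IDR list, with medians of 155 and 73.9. Bases covered, 45.2%, ranged from 51.6% to 58.7% in the lists of 1 replicate, which hold more regions. Replicate signals, with r = 0.58 and rho = 0.30, gave 0.27 and 0.0018 when each summit took the strongest replicate region over it, 0.22 and 0.13 without the strongest region, and 0.10 and -0.022 without the 2 regions farthest from the replicate 1 median (all added after seeing the data). Nuclear pathway genes with a summit, 2, were 87 with the whole pooled list, in which 53.7% of all nuclear protein-coding genes had one, and 0 within 500 bp, where 0.591% did. Where no reason is given, the cause was not tested. No paired analysis was possible because the 2 replicates form 1 group. Without read totals, and with 2 replicates, the precision of a region's signal cannot be given.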

Other observations

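The ce10 lists gave 21 IDR, 26 pooled, 27 replicate 1 and 24 replicate 2 regions on MtDNA, which ends at base 13794 in both builds. All 24 replicate 2 regions were the same in both builds to the base, whereas none of the 27 replicate 1 regions was, and replicate 1 summits lay a median of 8 bp from the nearest ce10 summit. ND5 held the strongest region on ce10 too, with a signal of 553 in the pooled list, 258 in replicate 1 and 305 in replicate 2.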
